A study of Homo sapiens with 9 samples.

Results

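Inhibitor of apoptosis proteins (IAPs), their antagonist DIABLO and the caspase CASP9 are described here by the levels of their transcripts in A2780 cells, an established human ovarian carcinoma line, after exposure to DIG-MSK. DIG-MSK is an analogue of the antibiotic mithramycin, which binds C/G-rich DNA. The members were chosen by name, as every gene probe of the array whose RefSeq accession belongs to XIAP, BIRC2, BIRC3, BIRC5, BIRC6, BIRC7, DIABLO or CASP9. They comprise 8 genes and 9 of the 42405 gene probes, since XIAP had a pair of probes and each other gene 1. RNA from 3 untreated cultures, 3 cultures given 8 nM DIG-MSK and 3 given 80 nM was hybridized to 9 arrays, 1 per culture, and the labels give 24 h as the length of both treatments. The study's methods call the cultures independent biological replicates. All cultures were of the same unmodified line, and the 3 control cultures received no drug. A single cell line limits every comparison to that line.

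IAPs carry a baculoviral IAP repeat, and some also a RING domain that attaches ubiquitin. XIAP binds and blocks caspases, among them the initiator caspase CASP9. BIRC2 and BIRC3, also called cIAP1 and cIAP2, bind caspases but act mainly as ubiquitin ligases in tumour necrosis factor receptor complexes through TRAF2, and BIRC3 is a well-known target of NF-kappaB. BIRC5 (survivin) belongs to the chromosomal passenger complex of mitosis, BIRC6 is a very large IAP that is also a ubiquitin-conjugating enzyme, and BIRC7 (livin) is expressed in some tumours. DIABLO (SMAC) leaves mitochondria with cytochrome c and displaces caspases from IAPs, while CASP9 is activated on the apoptosome built by APAF1.

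Because the compound belongs to a family that binds C/G-rich DNA, the windows around the start of transcription are shown for BIRC2, BIRC3 and CASP9, which differed between the concentrations, and for XIAP, the direct inhibitor of caspases. They were taken from RefSeq on GRCh38.p14 as 250 bases before and 50 after the start. Where a gene has several windows, the one listed first is printed. Capitals mark the GC box letters GGGCGG, or CCGCCC for the opposite strand. BIRC2 and BIRC3 are neighbours on the plus strand of chromosome 11, with windows at chr11:102346964-102347263 and chr11:102317234-102317533, the XIAP window is at chrX:123859458-123859757 on the plus strand, and the CASP9 window is at chr1:15524166-15524465 on the minus strand.
BIRC2: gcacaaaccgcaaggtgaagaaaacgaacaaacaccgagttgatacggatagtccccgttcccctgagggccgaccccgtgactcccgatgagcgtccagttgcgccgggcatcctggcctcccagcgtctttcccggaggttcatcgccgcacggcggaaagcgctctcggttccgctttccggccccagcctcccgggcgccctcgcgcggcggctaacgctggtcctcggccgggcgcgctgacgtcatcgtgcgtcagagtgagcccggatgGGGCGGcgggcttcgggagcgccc
BIRC3: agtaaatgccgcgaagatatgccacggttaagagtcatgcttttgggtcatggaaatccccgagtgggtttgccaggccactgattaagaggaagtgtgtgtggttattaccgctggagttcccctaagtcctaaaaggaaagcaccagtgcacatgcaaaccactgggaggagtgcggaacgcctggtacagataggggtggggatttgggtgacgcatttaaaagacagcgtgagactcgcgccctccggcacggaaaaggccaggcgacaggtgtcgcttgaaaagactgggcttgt
XIAP: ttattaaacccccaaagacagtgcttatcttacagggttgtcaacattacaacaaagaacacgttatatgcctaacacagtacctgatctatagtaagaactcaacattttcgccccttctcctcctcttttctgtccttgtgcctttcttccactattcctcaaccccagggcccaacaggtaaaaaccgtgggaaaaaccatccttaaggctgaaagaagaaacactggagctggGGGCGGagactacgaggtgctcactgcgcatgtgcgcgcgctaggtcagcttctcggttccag
CASP9: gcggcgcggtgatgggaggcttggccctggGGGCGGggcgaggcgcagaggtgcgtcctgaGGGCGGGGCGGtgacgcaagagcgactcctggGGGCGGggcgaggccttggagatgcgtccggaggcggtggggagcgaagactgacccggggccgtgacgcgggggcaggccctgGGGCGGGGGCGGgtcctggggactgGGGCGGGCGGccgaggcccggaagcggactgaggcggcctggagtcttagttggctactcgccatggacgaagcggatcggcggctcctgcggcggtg
The BIRC2 window held 1 GC box and 68.7% G or C, the BIRC3 window 0 boxes and 53.3%, the XIAP window 1 box and 48.0%, and the CASP9 window 8 boxes, counted with overlaps, and 76.0%. The other windows of these genes differed from those printed: the second of BIRC2 held 3 boxes and 74.0%, the other two of XIAP held 0 boxes and 68.0%, and 2 boxes and 60.3%, and the second of CASP9 held 9 boxes and 71.3%. Over all 35116 windows of the table, 45.0% held at least 1 box on either strand, 2.86% held 6 or more, and the median G or C content was 58.7%. In all, 7 of the 8 members had a window, and 11 of their 15 windows held a box. Windows of a gene can overlap, so a box can be counted more than once, as for BIRC2 and XIAP. All 4 windows of DIABLO, which passed at neither concentration, held a box. Whether the members differ from all windows was not tested. These matches describe the letters only.

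Levels are the log2 of the background-subtracted intensity relative to the 75th percentile of the same array, and a gene was said to rise or fall at 1.5-fold or more with an adjusted p under 0.05 (limma over all 9 arrays, Benjamini-Hochberg adjustment over 21832 genes tested). The 75th percentile lay between 831.7 and 1170 intensity units, and between 24814 and 27151 probes per array were well above background. All arrays of untreated cells and of 8 nM DIG-MSK shared slide 1, and those of 80 nM occupied slide 2, with a scan of its own, so 80 nM DIG-MSK and a slide difference cannot be told apart in any comparison with the 80 nM arrays. Of 10 ovarian and epithelial markers, 6 were well above background on every untreated array (KRT7, KRT8, KRT18, KRT19, EPCAM and ESR1), whereas CDH1, MUC16 and WT1 were on no array. PAX8 was well above background on 1 of 3 arrays in each group and was not tested. In these cultures of a single line, genes used as markers of other cells were detected too, 4 of 5 for fibroblasts, 3 of 5 for leukocytes and 1 of 4 for endothelium. Of these, PDGFRA, well above background on 2 of 3 arrays at 80 nM, changed by -6.50 on the log2 scale, DCN by -1.39, COL3A1 by 2.08 and CD68 by 1.25 at 80 nM against untreated. The other detected markers of these lists passed at neither concentration. Their log2 changes at 80 nM were 0.18 for THY1, -0.20 for PTPRC, 0.20 for CD14 and 0.23 for CDH5. COL3A1 also rose at 8 nM (0.64), and the epithelial marker EPCAM rose at 8 nM (0.90) and fell at 80 nM (-0.92). None of the other epithelial markers tested passed. The part of these markers in the values below was not tested.

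Of the 8 members, 7 were tested, and BIRC7 was too dim to pass the filter of well above background on all 3 arrays of a group. BIRC3 passed only through the treated arrays, in which it is high, so its calls against untreated are a description. The other 6 were well above background on all 9 arrays. At 8 nM DIG-MSK, BIRC3 rose and none of the tested members fell, while in the whole data set 5.05% of the genes tested changed, 3.71% upwards and 1.34% downwards. At 80 nM, BIRC2 and BIRC3 rose, and XIAP, BIRC6 and CASP9 fell, with 34.2% of all genes changed, 18.4% upwards and 15.8% downwards. Of the 6 members measured on all 9 arrays, 0 passed at 8 nM and 4 at 80 nM, and BIRC5 and DIABLO stayed under the fold limit in both comparisons. The median log2 change of the 7 members was -0.03 at 8 nM and -0.42 at 80 nM, beside -0.06 and 0.08 for all genes. Both comparisons used the same untreated arrays. Whether groups of arrays overlap is given below as a description only, since the share of all genes without overlap was not counted. These are levels of RNA in whole cultures, in which fewer cells of a kind and less RNA per cell cannot be told apart.

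**Figure D1:**
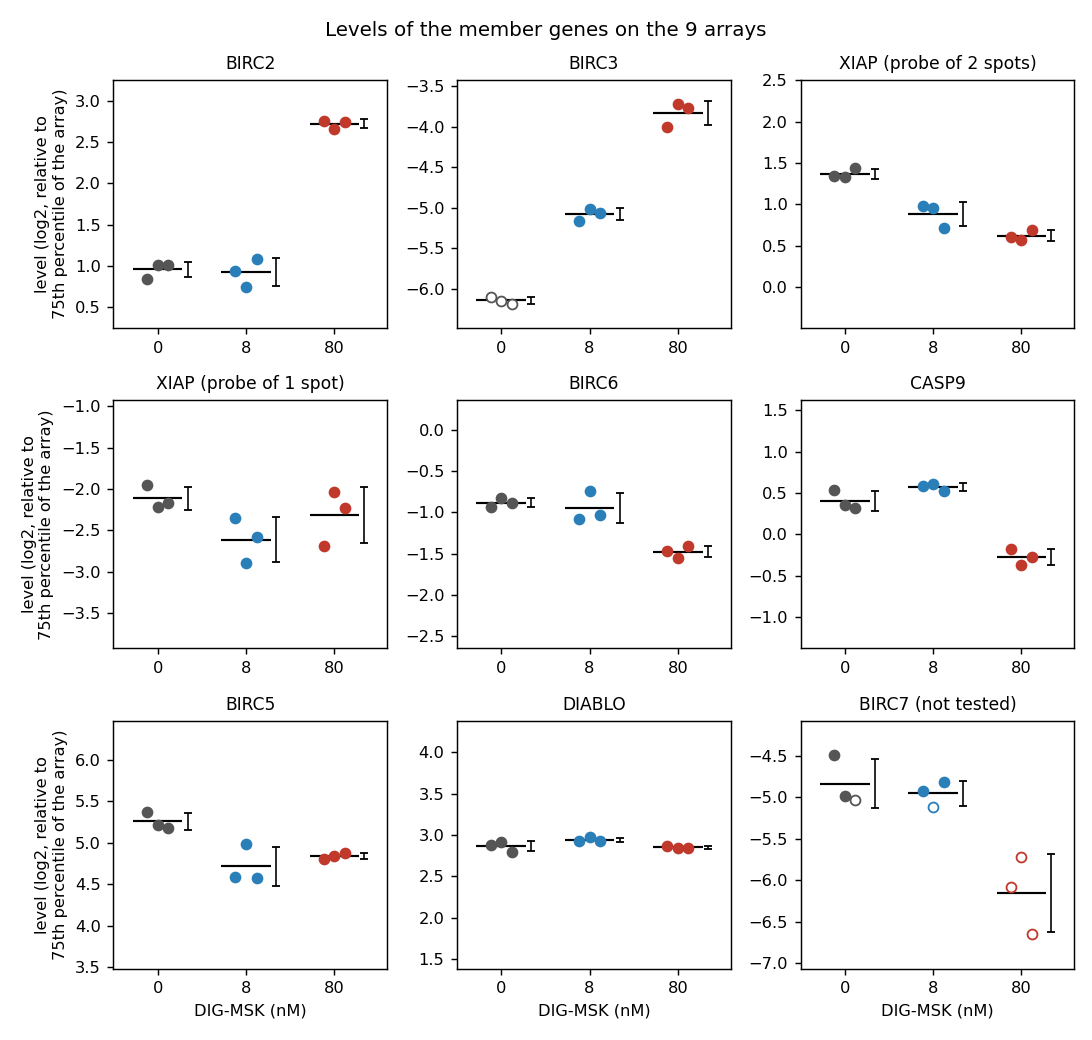
Level of each member probe on the 9 arrays (vertical axis, log2 relative to the 75th percentile of the array; each panel has its own scale) at 0, 8 and 80 nM DIG-MSK (horizontal axis). Points are arrays, open where the probe was not well above background, long bars are means, and whiskers are 1 SD (n = 3). All 80 nM arrays lie above all others for BIRC2 and BIRC3 and below all others for the XIAP probe of 2 spots, BIRC6 and CASP9.

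At 80 nM, the cIAP genes gave the largest changes of the 7 tested members in the main setting. BIRC2 (probe for NM_001166) stood at 0.85, 1.01 and 1.01 on the untreated arrays, at 0.94, 0.75 and 1.09 at 8 nM, and at 2.76, 2.66 and 2.74 at 80 nM. The untreated and 8 nM arrays overlapped, and all 80 nM arrays stood above both. BIRC2 rose 3.39-fold at 80 nM (log2 change 1.76 ± 0.10 SE, limma adjusted p = 2.6e-06), with group means of 0.96 ± 0.09 and 2.72 ± 0.05 (SD, n = 3). At 8 nM its log2 change was -0.03 with a 95% confidence interval from -0.26 to 0.19 (limma adjusted p = 0.84). The 80 nM arrays also exceeded those at 8 nM by 1.79 on the log2 scale (limma adjusted p = 2.4e-06). The rise at 80 nM lay between 1.48 and 1.79 and passed under all 20 other settings and left-out arrays. Some of these, such as the filters, the replicate block and a left-out 8 nM array, cannot move the estimate.

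BIRC3 (NM_001165) was measured near the detection limit. Its level was -6.10, -6.15 and -6.18 on the untreated arrays, where its probe was not well above background, -5.16, -5.02 and -5.06 at 8 nM, and -4.00, -3.72 and -3.77 at 80 nM. The 3 groups did not overlap and the order was untreated, 8 nM, 80 nM. With the untreated side set at the detection limit, BIRC3 in the main setting was at least 1.98-fold higher at 8 nM and at least 4.69-fold higher at 80 nM. These bounds hold for the main setting only, and other treatments of background gave smaller changes, given below. The fit's own log2 changes, without the bound, were 1.06 (limma adjusted p = 0.00032) and 2.31 (limma adjusted p = 3.5e-07). Between 80 and 8 nM, where both sides were measured, it rose 2.38-fold (log2 change 1.25 ± 0.09 SE, limma adjusted p = 1.1e-05). Since the probe passed the filter on low values only through the treated arrays, in which it is high, its p-values against the untreated arrays are given as a description.

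The size of the BIRC3 change depended on how background was treated. Before background subtraction, the spot signal was 57.5, 70.5 and 69.3 intensity units on the untreated arrays, 89.7, 71.7 and 90.7 at 8 nM, and from 104 to 112 on the arrays of 80 nM. In these raw units the second 8 nM array stood barely above the highest untreated array, whereas all 80 nM arrays stood clear of the others. Raw signals are not scaled between arrays. The 75th percentile of processed intensity was 833.3 on the second 8 nM array and 1096 on that untreated array. At 8 nM the log2 change was 0.23 after normexp correction (limma adjusted p = 0.17), 0.27 without any background subtraction and 0.41 in the authors' log2 values, all below the fold limit. At 80 nM the corresponding values were 0.83, 0.81 and 1.11, all of which passed. Between 80 and 8 nM they were 0.60, 0.54 and 0.70, of which the value without background subtraction did not pass. The 2 spots of the probe differed on an array by an SD of up to 0.57 on the log2 scale.

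**Figure D2:**
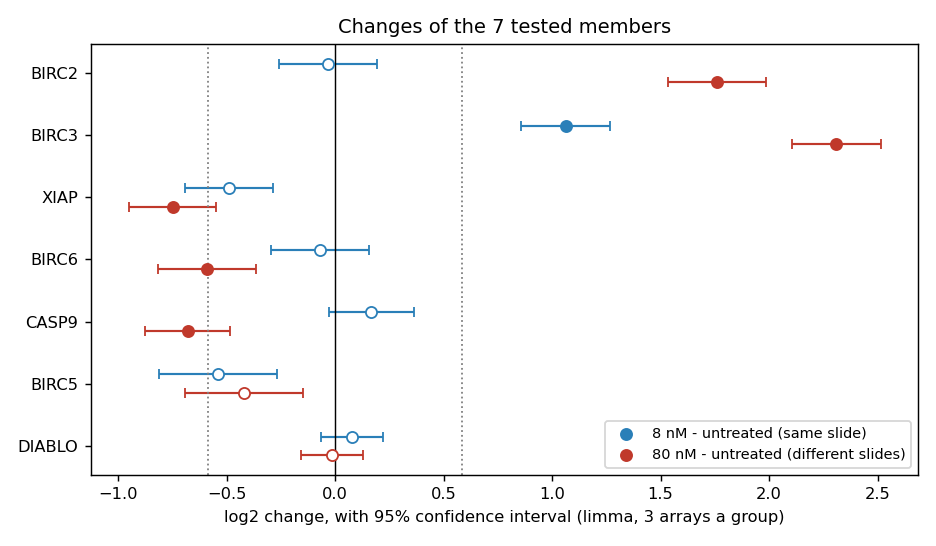
Log2 change of the 7 tested members (horizontal axis) at 8 nM (blue) and 80 nM (red) against the untreated arrays, with 95% confidence intervals from limma. Filled points passed both limits, open points did not, and dotted lines mark 1.5-fold. BIRC2 and BIRC3 lie to the right at 80 nM, and XIAP, BIRC6 and CASP9 to the left. For BIRC3 the untreated arrays give a bound only.

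XIAP, the inhibitor that acts directly on caspases, was read by a probe of 2 spots (NM_001167) and a probe of 1 spot. The first stood at 1.34, 1.34 and 1.44 on the untreated arrays, at 0.97, 0.96 and 0.71 at 8 nM, and at 0.61, 0.57 and 0.69 at 80 nM. All treated arrays were below all untreated arrays, and all 80 nM arrays below all 8 nM arrays. XIAP fell 1.68-fold at 80 nM by this probe (log2 change -0.75 ± 0.09 SE, limma adjusted p = 0.00016). At 8 nM the log2 change was -0.49 ± 0.09 SE, or 1.4-fold lower, with a limma adjusted p of 0.0097 but below the fold limit.

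The XIAP probe of 1 spot did not pass at 80 nM. It read -1.95, -2.21 and -2.17 without drug, -2.36, -2.90 and -2.58 at 8 nM, and -2.69, -2.03 and -2.23 at 80 nM. The 8 nM arrays were all lower than the untreated ones, with a log2 change of -0.50, close to that of the other probe (limma adjusted p = 0.13 over 26457 probes tested separately). The 80 nM arrays overlapped the untreated ones, with a log2 change of -0.20 and a 95% confidence interval from -0.65 to 0.24 (limma adjusted p = 0.39), whereas the other probe gave -0.75. The difference between the probes was not tested. Averaging both probes gave -0.48 at 80 nM, below the fold limit, so the call for XIAP at 80 nM rests on the probe of 2 spots.

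BIRC6 (NM_016252), the giant IAP, stood at -0.93, -0.83 and -0.89 without drug, at -1.08, -0.74 and -1.03 at 8 nM, and at -1.47, -1.55 and -1.41 at 80 nM. The untreated and 8 nM arrays overlapped, and all 80 nM arrays were lower. BIRC6 fell 1.51-fold at 80 nM (log2 change -0.59 ± 0.10 SE, limma adjusted p = 0.0011), just past the fold limit. Its adjusted p stayed under 0.05 under every other setting, but the change lay between -0.48 and -0.87 and fell short of 1.5-fold in 5 of 20, among them the fits without the second untreated array (-0.56) and without the second 80 nM array (-0.56). At 8 nM its log2 change was -0.07, with a 95% confidence interval from -0.29 to 0.16 (limma adjusted p = 0.66).

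BIRC5 (NM_001012271), or survivin, was represented by 10 spots, which differed within an array by an SD of 0.03 to 0.09. Its level was 5.38, 5.21 and 5.18 on the untreated arrays, 4.59, 4.99 and 4.58 at 8 nM, and 4.81, 4.84 and 4.87 at 80 nM. All 6 treated arrays were below the untreated arrays, and the 8 nM arrays lay on both sides of those at 80 nM. The log2 change was -0.54 ± 0.12 SE at 8 nM (1.45-fold lower, limma adjusted p = 0.021) and -0.42 ± 0.12 SE at 80 nM (1.34-fold lower, limma adjusted p = 0.015), both short of the fold limit. Without the second 8 nM array, the change at 8 nM was -0.68 and passed.

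Other subunits of the chromosomal passenger complex, in which BIRC5 works, gave the following values. AURKB, the kinase of the complex, had log2 changes of -0.39 at 8 nM and 0.12 at 80 nM (limma adjusted p = 0.0078 and 0.15). CDCA8 (borealin) had changes of -0.24 and -0.11 (limma adjusted p = 0.14 and 0.34). INCENP, the scaffold, fell at 80 nM (log2 change -1.63, limma adjusted p = 8e-05), while its change at 8 nM was -0.32 (limma adjusted p = 0.24). Of the 3 subunits tested, 1 passed at 80 nM, near the 34.2% of all genes, and 0 at 8 nM, and AURKC was not tested.

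BIRC7 (NM_022161) was at or below the detection limit. Its probe was well above background on 2 of the 3 untreated arrays, on 2 of the 3 at 8 nM and on none at 80 nM. The levels were -4.49, -4.98 and -5.03 without drug, -4.93, -5.11 and -4.81 at 8 nM, and -6.08, -5.72 and -6.66 at 80 nM. The untreated and 8 nM arrays overlapped, whereas the 80 nM arrays all lay lower. Set against the detection limit of the 80 nM arrays, BIRC7 was at least 1.99-fold lower there than without drug and at least 1.83-fold lower than at 8 nM, with means of the brighter groups that each include 1 array on which the probe was not well above background. In a fit without the filter, its log2 change at 80 nM was -1.32 (limma adjusted p = 0.0048), but its 2 spots differed within an array by an SD of 0.59 to 1.16.

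DIABLO (NM_019887), the mitochondrial antagonist of the IAPs, had the smallest spread over the arrays of the 6 members measured on all 9. It read 2.89, 2.92 and 2.79 without drug, 2.93, 2.97 and 2.93 at 8 nM, and 2.87, 2.84 and 2.85 at 80 nM. All 9 arrays lay within 0.18 of one another on the log2 scale, and the 80 nM arrays overlapped the untreated ones. All 8 nM arrays lay slightly above all untreated and all 80 nM arrays. The log2 change was 0.08 at 8 nM with a 95% confidence interval from -0.07 to 0.22 (limma adjusted p = 0.43), and -0.01 at 80 nM with an interval from -0.16 to 0.13 (limma adjusted p = 0.86). HTRA2, another mitochondrial IAP antagonist, had log2 changes of 0.28 and -0.07 (limma adjusted p = 0.28 and 0.73).

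CASP9 (NM_001229), the initiator caspase that XIAP blocks, stood at 0.54, 0.36 and 0.32 without drug, at 0.58, 0.61 and 0.53 at 8 nM, and at -0.17, -0.37 and -0.28 at 80 nM. The untreated and 8 nM arrays overlapped, and all 80 nM arrays were lower. CASP9 fell 1.6-fold at 80 nM (log2 change -0.68 ± 0.09 SE, limma adjusted p = 0.00023). The change at 8 nM was 0.17 with a 95% confidence interval from -0.03 to 0.36 (limma adjusted p = 0.22). Between 80 and 8 nM it fell 1.8-fold (log2 change -0.85 ± 0.09 SE, limma adjusted p = 7.7e-05). The fall at 80 nM lay between -0.61 and -0.96 and passed under all 20 other settings and left-out arrays, some of which cannot move the estimate.

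The comparison of the concentrations with each other gave 3 members past both limits. BIRC2 and BIRC3 were higher at 80 nM than at 8 nM and CASP9 was lower, in a comparison in which 32.7% of all genes changed, 18.9% upwards and 13.7% downwards. BIRC6 and, by its probe of 2 spots, XIAP were also lower on every 80 nM array than on every 8 nM array, with log2 differences of -0.52 and -0.26 (limma adjusted p = 0.0022 and 0.034), short of the fold limit. By the XIAP probe of 1 spot the groups overlapped, with a log2 difference of 0.29 (limma adjusted p = 0.22). BIRC5 differed by 0.12 with a 95% confidence interval from -0.15 to 0.39, and DIABLO by -0.09 (limma adjusted p = 0.41 and 0.25). DIABLO, too, was lower on every 80 nM array than on every 8 nM array.

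**Figure D3:**
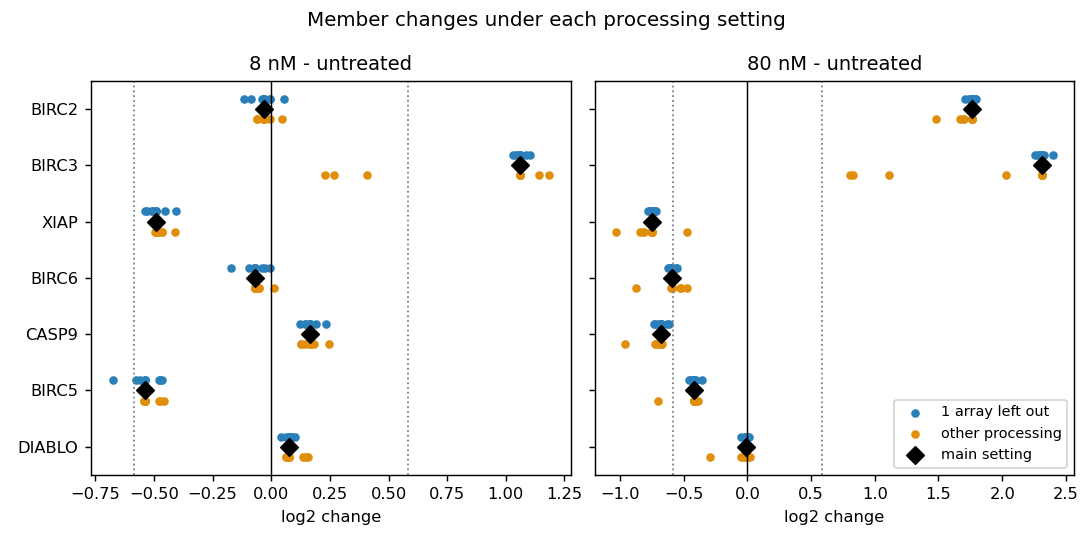
Log2 change of the 7 tested members (horizontal axis) at 8 nM (left) and 80 nM (right) in the main setting (diamonds), with 1 array left out (blue) and under other processing (orange). Dotted lines mark 1.5-fold. The BIRC3 change shrinks to between 0.23 and 0.41 at 8 nM, and to between 0.81 and 1.11 at 80 nM, under the settings that treat background differently.

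The genes that work with the members were read from a list of 38, of which 31 were tested. At 8 nM, 1 rose and 1 fell, and at 80 nM, 2 rose and 8 fell, against the shares of all genes given above. Their median log2 change was -0.001 at 8 nM and -0.003 at 80 nM. In the apoptosome, APAF1 had log2 changes of 0.47 at 8 nM and 0.13 at 80 nM (limma adjusted p = 0.084 and 0.5), and CYCS (cytochrome c) of -0.24 and 0.31 (limma adjusted p = 0.19 and 0.041), all under the fold limit. None of the initiator caspases CASP2, CASP8 and CASP10, and none of the inflammatory caspases tested, passed at either concentration, although CASP8 and CASP1 varied on the untreated arrays with an SD of 0.70 and 0.78 on the log2 scale (n = 3). CASP10 had log2 changes of 0.40 at 8 nM and 0.49 at 80 nM (limma adjusted p = 0.019 and 0.0015), under the fold limit. At 80 nM those of CASP2 and CASP8 were 0.24 and 0.73 (limma adjusted p = 0.027 and 0.12).

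At death receptors, 1 of 7 tested genes rose and 2 fell at 80 nM, where 18.4% of all genes rose and 15.8% fell. TRAF2, the adaptor that brings BIRC2 and BIRC3 to the receptor, stood at 3.57 ± 0.11 (SD, n = 3) without drug, at 2.97 ± 0.20 at 8 nM and at 1.71 ± 0.06 at 80 nM. It fell at both concentrations, with log2 changes of -0.60 and -1.86 (limma adjusted p = 0.011 and 3.5e-06). The fall of TRAF2 at 8 nM was just past the fold limit and did not pass in 7 of 20 other settings (-0.51 to -0.71 over all 20), among them the fits without the first untreated array (-0.54), the first 8 nM array (-0.58) and the third 8 nM array (-0.51). FAS, a death receptor, rose at both, with log2 changes of 1.66 and 2.10 (limma adjusted p = 5.1e-05 and 7.1e-07). CFLAR, which blocks CASP8 at such receptors, fell at 80 nM just past the fold limit (log2 change -0.59, limma adjusted p = 9.8e-05), while its change at 8 nM was 0.13 (limma adjusted p = 0.19). The fall of CFLAR did not pass for the mean of its probes (-0.16), nor without the first untreated (-0.58) or the first 80 nM array (-0.57). XAF1, a partner of XIAP, fell at 80 nM (log2 change -3.30, limma adjusted p = 0.00014), where its probe was well above background on 1 of 3 arrays, so that the size of the fall is uncertain (-1.61 to -3.59 over the other settings), and its change at 8 nM was 0.18 with a standard error of 0.38. XAF1 passed the filter only through the untreated and 8 nM arrays, in which it is high. Its p-value at 80 nM is therefore a description, and the count of list genes that fell includes it.

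Among substrates that caspases cut, listed together with the caspase-activated DNase (DFFB), 3 of 6 tested genes fell and 1 rose at 80 nM, where 15.8% of all genes fell and 18.4% rose. PARP1, a DNA repair enzyme, fell from 4.33 ± 0.07 to 2.83 ± 0.11 (SD, n = 3, limma adjusted p = 1.2e-05), and ACIN1, a factor of chromatin condensation, from 1.25 ± 0.04 to -0.31 ± 0.12 (limma adjusted p = 8.5e-06). DFFA, the inhibitor of the caspase-activated DNase, fell just past the fold limit (log2 change -0.60, limma adjusted p = 0.00013) and did not pass in 5 of 20 other settings (-0.56 to -0.87 over all 20), among them the fits without the first untreated (-0.57) or the first 80 nM array (-0.57). LMNA, which encodes lamins of the nuclear envelope, rose by 0.82 (limma adjusted p = 0.00048), but did not pass under spike-in scaling (0.54). The mean of all its probes gave a smaller fall for PARP1 (log2 change -0.60), which still passed. At 8 nM none of these genes passed, with log2 changes of -0.44 for PARP1 and -0.45 for ACIN1 (limma adjusted p = 0.035 and 0.03).

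**Figure D4:**
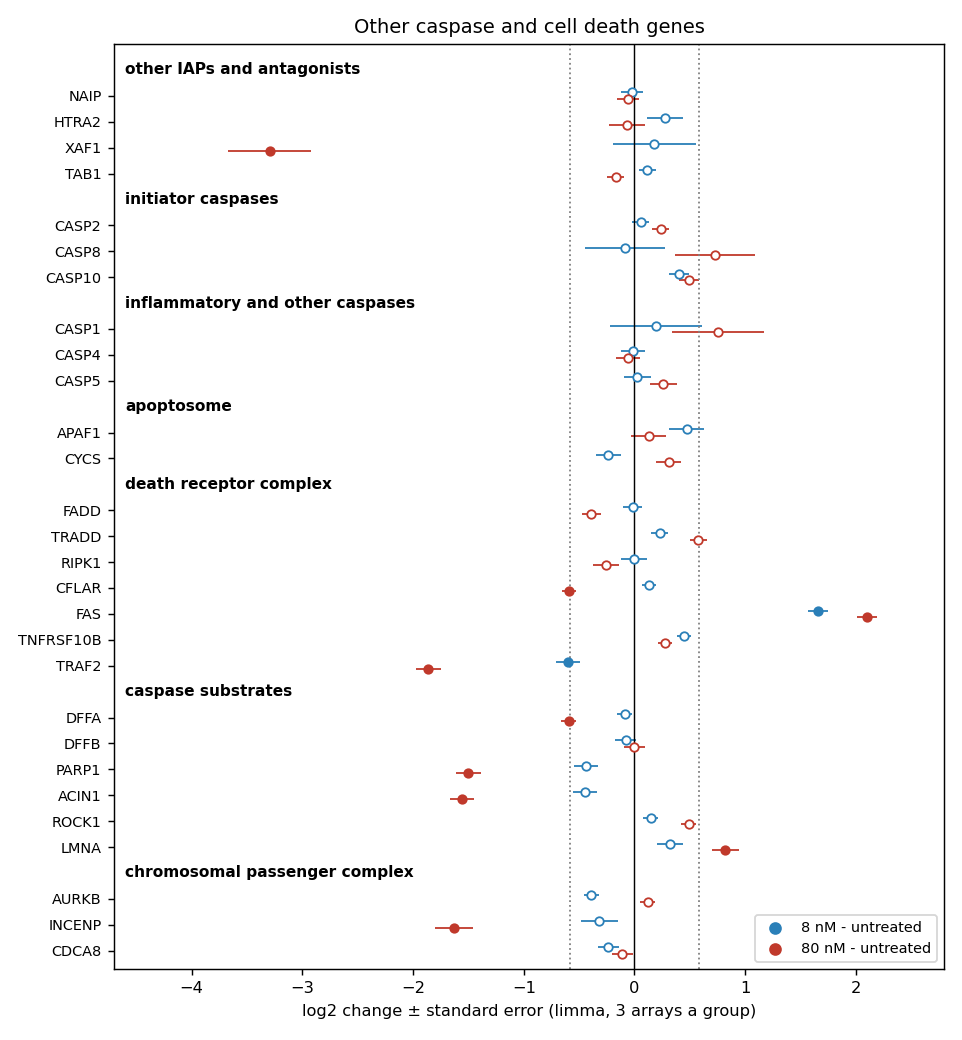
Log2 change (horizontal axis, ± standard error from limma, n = 3 arrays a group) of 28 tested genes of the list, grouped by role, at 8 nM (blue) and 80 nM (red) against the untreated arrays. Filled points passed both limits and dotted lines mark 1.5-fold. FAS lies to the right at both concentrations and TRAF2 to the left at both.

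For each member measured on all 9 arrays, the genes of most similar course were sought among 12697 named genes by the root mean square difference of the array levels after centring. BIRC2 was closest to EFHD1 and CCDC50 (differences of 0.09 and 0.10, against a spread of 0.84 for BIRC2 itself). CASP9 was closest to TIGD2 and RPAIN (0.06 each, own spread 0.37), XIAP to TIMM13 and RAB35 (0.09 each, own spread 0.32), and BIRC6 to ATG5 and FANCM (0.05 each, own spread 0.28). BIRC5 was closest to CENPN and CHAF1B (0.05 each, own spread 0.26), and DIABLO to DCTN3 and MAP3K7 (0.03 each, own spread 0.05).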

How the data were processed

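RNA of 9 cultures was labelled with Cy3 and hybridized by the authors to single-colour arrays. The methods name a Low Input Quick Amp kit, the labels another kit. The authors deposited, per the file headers, the processed intensity of each spot, background-subtracted by Feature Extraction 10.7.3.1 but not scaled between arrays (a lowess step named in the methods has no second channel here), and a table of log2 values per probe, used as an alternative only. In R 4.3.3, control and outlier spots were left out, log2 intensities of spots of a probe averaged, and the 75th percentile of the array subtracted. A probe was kept where all 3 arrays of some group read it well above background (26457 probes), and the probe of highest mean level stood for a gene (21832). RefSeq accessions marked 27245 probes, of which 25715 got a current symbol from RefSeq tables of GRCh38.p14, which also gave the promoter windows.

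Groups, taken from the labels, were compared with limma 3.58.1 (lmFit, eBayes) on all 9 arrays, with Benjamini-Hochberg adjustment. The procedure was tested on simulated data. The text names all members with every probe and most of the list genes that passed at 8 or 80 nM against untreated. It also names APAF1, CYCS, HTRA2 and AURKB, and the 2 genes most alike to each member measured on all 9 arrays. Some list genes are included in the list's counts but their own values are not reported here. Members and lists were chosen with earlier results of these data known, and genes named otherwise (markers, CDCA8, CASP8, CASP1 and chromosome 11 neighbours among them) were chosen after their values were seen. Where a probe was not well above background in a group, the bound sets the mean of the brighter group against the higher of the lowest well-above-background signal and the probe's own signal on each array. Replicate numbers were not taken to pair samples. Alternatives were normexp (offset 50, on the median spot signal), quantile normalization, spike-in scaling, the authors' log2 values, 2 other filters, the mean of a gene's probes, only the groups compared, the replicate block, an unadjusted p, each array left out, and, chosen after seeing the data, no background subtraction and each probe separately. Precision is limited by having 3 arrays a group.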

Additional observations from a re-analysis of the deposited data

Results flagged for a closer look

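The response of 3 members differed between the concentrations by the limma contrast of 80 nM against 8 nM. The log2 difference was 1.79 for BIRC2 (adjusted p = 2.4e-06) and 1.25 for BIRC3 (adjusted p = 1.1e-05), both higher on 3 of 3 arrays at 80 nM than on any at 8 nM. The BIRC3 difference was 0.60 after normexp correction and 0.70 in the authors' log2 values, and 0.54, short of the fold limit, without background subtraction. For CASP9 the log2 difference was -0.85 (adjusted p = 7.7e-05), lower on 3 of 3 arrays. The concentrations lay on different slides, so concentration and slide cannot be told apart.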

How the results depend on the processing

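Of 417 recomputed member changes, 394 kept their direction and side of the threshold, 10 no longer passed, 5 newly passed and 8 changed sign. Many of the 417 could not move the estimate, so the count says little on robustness. Among them are the filters, the replicate block, the unadjusted p, only the groups compared, and a left-out array outside the comparison. The sign changes were all of small values: DIABLO at 80 nM (0.021 under quantile normalization, 0.004 in the authors' values, and -0.049 to 0.012 with an array left out, positive without the second untreated array), BIRC2 at 8 nM (0.047 under spike-in scaling, and -0.115 to 0.055 with an array left out, positive without the second 8 nM array), BIRC6 at 8 nM (0.012 under spike-in scaling), and, between 80 and 8 nM, BIRC5 (-0.24 under spike-in scaling) and XIAP (0.017 for the mean of its probes). The members that passed at 8 nM numbered 0, in place of 1, under normexp, in the authors' values, with the filter on all 9 arrays (which drops BIRC3) and without background subtraction, and 1 to 2 with an array left out. Without the second 8 nM array, BIRC5 also passed. BIRC7 entered the fits without the third untreated or the second 8 nM array, with log2 changes of -1.42 and -1.32 at 80 nM. Those arrays are the ones of their groups on which its probe was not well above background. Without either, BIRC7 passed the filter only through a group in which it is high, so these values are a description.

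Over all genes, spike-in scaling took the median change from 0.08 to -0.20 at 80 nM and from 0.12 to -0.24 between the concentrations. The share of calls that were lower went from 46.2% to 73.2% at 80 nM, from 42.1% to 79.8% between 80 and 8 nM, and from 26.6% to 6.78% at 8 nM. Without background subtraction it was 57.5% at 80 nM and 54.5% between the concentrations. Under spike-in scaling 5 members, in place of 3, and 13 list genes, in place of 6, passed between the concentrations, and BIRC5 at 80 nM passed with -0.70. The list genes that passed at 8 nM were 1, in place of 2, under quantile normalization, spike-in scaling and in the authors' values, and 1 to 2 with an array left out, the call lost being that of TRAF2. Over all genes, the calls at 8 nM were 611 under normexp, 369 under spike-in scaling and 687 without background subtraction, in place of 1102. Under normexp they were 4681 at 80 nM and 4253 between the concentrations, in place of 7458 and 7130.

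With the replicate block, 1047, 7376 and 7046 genes passed in the 3 comparisons, and 1, 5 and 3 members. Same-numbered untreated and 8 nM arrays deviated together with correlations of 0.11, 0.10 and 0.16, each array best with its own number, and no such relation held with the 80 nM arrays (at most 0.02).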

Other observations

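BIRC3 and BIRC2 lie side by side on chromosome 11, and their neighbours were looked at after the values were seen. TMEM123, which follows BIRC2 in gene order, rose at 80 nM by 0.86 on the log2 scale (limma adjusted p = 0.00013) with a change of -0.30 at 8 nM (limma adjusted p = 0.08). YAP1, which precedes BIRC3 and encodes a transcriptional coactivator, had changes of -0.42 at 8 nM and -0.10 at 80 nM (limma adjusted p = 0.21 and 0.71). CFAP300, the next gene before YAP1, rose at 80 nM by 1.00 (limma adjusted p = 2e-05) with a change of 0.55 at 8 nM (limma adjusted p = 0.0043). MMP7, MMP20 and CEP126 were not tested.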
